A study of Arabidopsis thaliana with 6 samples.

Results

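The genes described here make, move and break down glucosinolates in Arabidopsis thaliana leaves. They are 45 loci listed by identifier for their known roles, with no measured value in the rule: enzymes of the aliphatic and the indolic branch, their MYB regulators, transporters, myrosinases and the proteins that steer hydrolysis. Values were read for 44 of them among 27655 gene loci, and AOP2 was not analysed here. The aliphatic branch held 22 of the listed loci, the indolic branch 10, steps shared by both branches 3, transport 2 and breakdown 8. A locus is called measured when it had at least 20 reads over both libraries, which held for 41 members and not for MYB122, FMO GS-OX2 and AOP3.

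RNA-seq compared 1 library from wild type (Col-0) with 1 library labelled jmj16. Per the labels, the mutant line is jmj16-1, a SAIL line given as a knockout of JMJ16, a demethylase of histone H3 lysine 4 by the study's title, and both genotypes share the Col-0 background. Leaves 5 and 6, fully grown and not yet yellow, were taken from plants started on plates for 6 days and moved to soil, with 22 °C and 16 h light before 8 h dark, and their age is given as 4 weeks in one label and 5 weeks in another. The 4 chromatin immunoprecipitation samples of the series were not analysed here. Each genotype has 1 library, so variation between replicates is unknown and p-values are left out. Intervals of reads and of log2 or fold ratios cover counting error only. Intervals of medians are taken over member genes as if these were independent. Genes are not replicates, so the median intervals do not cover variation between plants or libraries. In leaf RNA, fewer cells of a type and less RNA per cell cannot be told apart.

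Glucosinolates are sulfur-rich glucosides that plants of the cabbage order store against herbivores and microbes. Aliphatic glucosinolates of Arabidopsis start from methionine, whose side chain is first lengthened in cycles, while indolic ones start from tryptophan. Both then pass through a shared plan of steps, in which CYP79 and CYP83 cytochromes P450 make an activated intermediate, glutathione is added and trimmed, and a C-S lyase, a glucosyltransferase and a sulfotransferase finish the core. MYB28, MYB29 and MYB76 activate the aliphatic genes, and MYB34, MYB51 and MYB122 the indolic ones. When tissue is crushed, myrosinases remove the glucose, and specifier proteins decide whether nitriles or isothiocyanates form.

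The wild type library held 10643186 estimated counts and the jmj16-labelled library 13844284. JMJ16 (AT1G08620) had 188 reads in wild type against 168 in the jmj16-labelled library, a log2 ratio of -0.63 (95% counting interval -0.94 to -0.33). It was 0.37 after correction for transcript length, and -1.23 from its most abundant transcript model alone, without that correction. The direction depends on the processing, so the reads of JMJ16 do not check the label. Reads are given as deposited, summed per gene, and ratios are scaled for library size, so equal expression gives more reads in the jmj16-labelled library. The leaf gene RBCS1A, a Rubisco small subunit, stood at 14675 and 10306 TPM, and the late senescence protease SAG12 had 0 reads in both. Transcript length moved with the log2 ratio over the 17151 measured genes, longer ones having lower values (Spearman rho -0.44 across genes, which are not replicates). Its median was 0.38 in the tenth of genes with the shortest transcripts and -0.87 in the tenth with the longest. A length-corrected log2 ratio, taken relative to this trend, is therefore given wherever it changes the sign of a member's value, and for some further genes.

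Of the measured glucosinolate genes 34 were called neither higher nor lower, and the 7 that passed did so in both directions. A gene is called higher or lower in the jmj16-labelled library when its scaled reads differ at least 2-fold and the counting interval of the ratio excludes 1. By this rule 4 of 41 measured members (9.76%) were higher, against 7.22% of all measured genes, and 3 members (7.32%) were lower, against 10.6%. Both shares are near the background. The higher members were the regulator MYB76, the aminotransferase BCAT4, the glutathione transferase GSTU20 and the transporter GTR2. The lower members were the regulator MYB29, the chain-elongating synthase MAM3 and the indolic hydroxylase CYP81F4. All 7 were also called, in the same direction, after length correction, by which rule 6.22% of all measured genes were higher and 6.64% lower.

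The branches are given side by side here, and their difference was not tested. In the aliphatic branch 16 of 19 measured members had a log2 ratio above 0, where 51.2% of all measured genes had one. The aliphatic median was 0.48 (exact binomial interval over members 0.06 to 0.82), beside 0.02 over all measured genes. After length correction 14 of 19 aliphatic members were above 0 and the median was 0.45, with an interval of -0.05 to 0.91 that includes 0. The indolic branch had 4 of 9 measured members above 0 and a median of -0.22 (-0.41 to 0.58). Of 8 breakdown members 2 were above 0, with a median of -0.44 (-0.73 to 0.36). The aliphatic median exceeded the indolic one by 0.70 on the log2 scale, but by 0.40 when only members with at least 100 reads were kept, when the aliphatic median was 0.40 and the indolic -0.0039. At a lower size limit of 1.5-fold, 11 members (26.8%) were higher and 7 (17.1%) lower, where 16.4% and 19.6% of all measured genes were. At that limit 8 of 19 aliphatic members (42.1%) were higher and 2 lower, and of 9 indolic members 1 (11.1%) was higher and 1 lower.

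**Figure D1:**
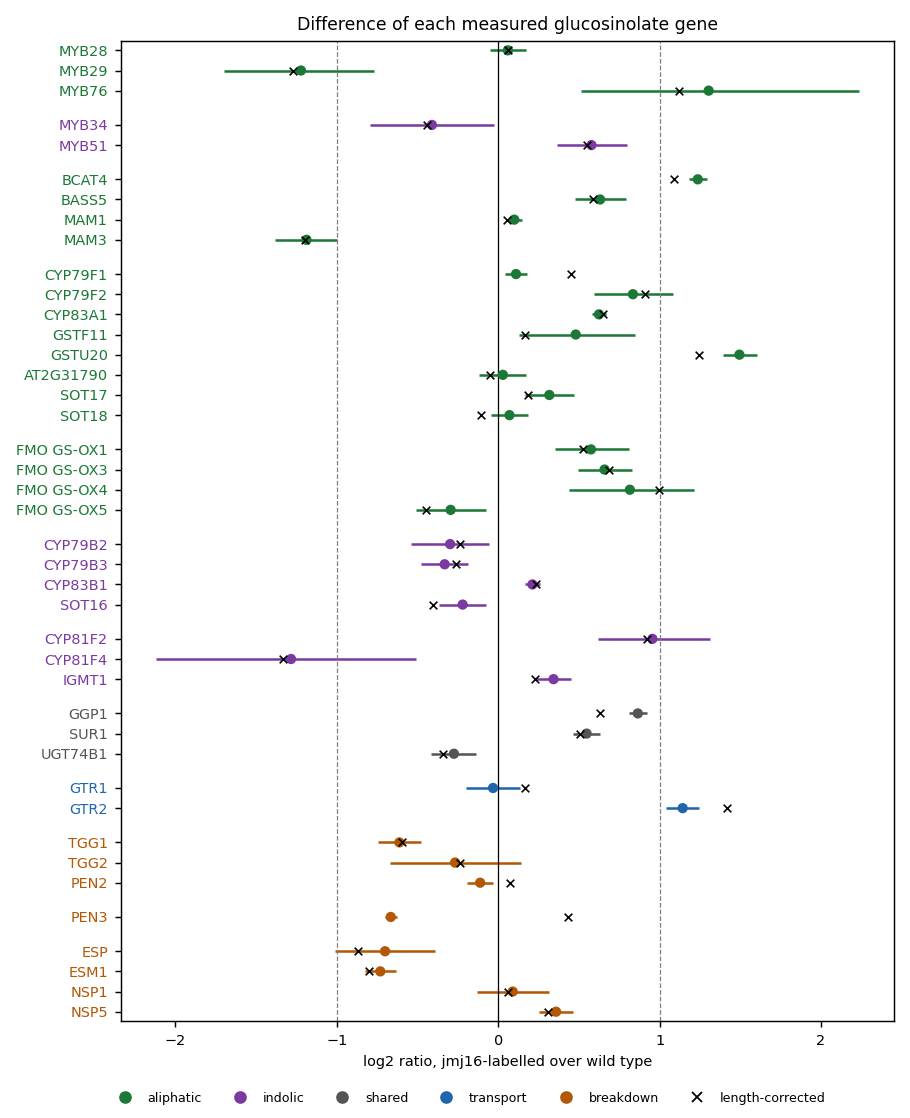
Log2 ratio (jmj16-labelled over wild type) for the 41 measured members, ordered by branch and step, with 95% counting intervals as bars, length-corrected values as crosses and dashed lines at 2-fold. Most aliphatic genes sit to the right of 0, with MYB29 and MAM3 as exceptions beyond 2-fold, and PEN3 changes sides after length correction.

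The 3 aliphatic regulators went 3 ways. MYB28 (AT5G61420), the main activator of the branch in leaves, had 1144 reads in wild type against 1654 in the jmj16-labelled library, or 57.3 and 62.3 TPM, with a log2 ratio of 0.06 (-0.05 to 0.17). MYB29 (AT5G07690), its partner, had 108 and 64 reads (5.85 and 2.62 TPM), which was 2.33-fold lower (1.7 to 3.24). MYB76 (AT5G07700), the third activator, had 16 reads (95% Poisson interval 9.15 to 26) and 56 reads (42.3 to 72.7), and was 2.47-fold higher (1.43 to 4.71), at 1.07 and 3.19 TPM. MYB29 and MYB76 lie side by side in the gene order of the reference, with log2 ratios of -1.22 and 1.30. Both are close paralogs whose reads can be split wrongly. Summed, the pair had 124 and 120 reads, a log2 ratio of -0.52 (-0.89 to -0.15). Whether a wrong split has a part in the opposite calls was not tested. With an interval wholly beyond 2-fold neither was called, and with a minimum of 100 reads MYB76 was not measured. In TPM, a level per transcript length, MYB28 was 9.81 times MYB29 in wild type against 23.8 times in the jmj16-labelled library.

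The division of reads between transcript models of the regulators also differed. Of the MYB76 reads, 2.97 in wild type against 49.5 in the jmj16-labelled library went to model AT5G07700.1, while AT5G07700.2 had 13.0 and 6.52, so from the first model alone the log2 ratio was 3.35. MYB28 reads went mostly to AT5G61420.1 in wild type (55.7%) and mostly to AT5G61420.2 in the jmj16-labelled library (57.8%). Reads of overlapping models are split by the quantifier's estimate, and for MYB76 it rests on few reads.

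Chain elongation held 1 higher and 1 lower gene. BCAT4 (AT3G19710), the aminotransferase that takes methionine into elongation, had 3365 reads in wild type against 10998 in the jmj16-labelled library. It was 2.36-fold higher (2.27 to 2.45) and went from 225 to 556 TPM, which made it the most abundant aliphatic member in the jmj16-labelled library. BASS5 (AT4G12030), which imports the resulting keto acid into plastids, had 476 and 1023 reads and a log2 ratio of 0.63 (0.47 to 0.79).

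The condensing enzymes of elongation came apart. MAM1 (AT5G23010), the synthase for short chains, was the most abundant aliphatic member in wild type, with 6397 and 9505 reads and a log2 ratio of 0.10 (0.05 to 0.15). Its neighbour MAM3 (AT5G23020), which also makes long chains, had 600 and 365 reads (30.5 and 14.0 TPM), which was 2.28-fold lower (2.0 to 2.6). MAM1 therefore stood at 11.4 times the TPM of MAM3 in wild type and at 27.7 times in the jmj16-labelled library. Both are close paralogs whose reads can be split wrongly, and summed they had a log2 ratio of 0.02 (-0.02 to 0.07). Most of the summed reads were from MAM1, so the sum cannot check the value of MAM3.

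All 8 aliphatic core genes had log2 ratios above 0, from 0.03 to 1.49, and 1 of them was called. GSTU20 (AT1G78370), a glutathione transferase tied to the aliphatic branch, had 929 reads in wild type against 3632 in the jmj16-labelled library, or 83.0 and 246 TPM. It was 2.82-fold higher (2.62 to 3.03), the largest log2 ratio of any measured member before length correction. After it GSTU20 was at 1.24, below GTR2 at 1.41. GSTF11 (AT3G03190), of another transferase class, had only 99 and 192 reads, with a log2 ratio of 0.48 (0.13 to 0.85) that became 0.17 after correction for its short transcript.

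The P450 enzymes of the aliphatic core differed by less than 2-fold. CYP83A1 (AT4G13770), which oxidises aliphatic aldoximes, had 7035 and 15040 reads and a log2 ratio of 0.62 (0.58 to 0.67). CYP79F1 (AT1G16410), which makes the aldoximes from short- and long-chain substrates, had 2889 and 4325 reads and 0.11 (0.04 to 0.18), or 0.45 after length correction. CYP79F2 (AT1G16400), its neighbour for long chains, had 193 and 478 reads and 0.83 (0.59 to 1.09). The pair are near copies, and their summed reads, mostly from CYP79F1, gave a log2 ratio of 0.17 (0.10 to 0.23). This sum cannot check the value of CYP79F2. At the end of the core, the sulfotransferase SOT17 (AT1G18590) had 544 and 940 reads (log2 ratio 0.32, 0.16 to 0.47) and SOT18 (AT1G74090) 1058 and 1540 (0.07, -0.04 to 0.18). The locus AT2G31790, which the reference leaves without a symbol, had 660 and 934 reads and 0.03 (-0.12 to 0.18). After length correction SOT18 (-0.10) and AT2G31790 (-0.05) were below 0.

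No side-chain gene was called. FMO GS-OX1 to FMO GS-OX5 are monooxygenases that oxidise the sulfur of the side chain. FMO GS-OX3 (AT1G62560) had 430 and 942 reads (log2 ratio 0.66, 0.49 to 0.83), FMO GS-OX4 (AT1G62570) 80 and 196 (0.82, 0.44 to 1.21) and FMO GS-OX1 (AT1G65860) 235 and 486 (0.58, 0.35 to 0.81). FMO GS-OX5 (AT1G12140) went the other way, with 329 and 372 reads and -0.29 (-0.51 to -0.08), so that FMO GS-OX3 rather than FMO GS-OX5 had the highest TPM of the step in the jmj16-labelled library. FMO GS-OX2 (AT1G62540) had 6 and 5 reads. Because GS-OX genes 1 to 4 are close relatives, their summed reads of 751 and 1629 are the safer value, with a log2 ratio of 0.65 (0.52 to 0.77). AOP3 (AT4G03050), a dioxygenase of side-chain conversion, had 0 reads in wild type against 4 in the jmj16-labelled library.

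**Figure D2:**
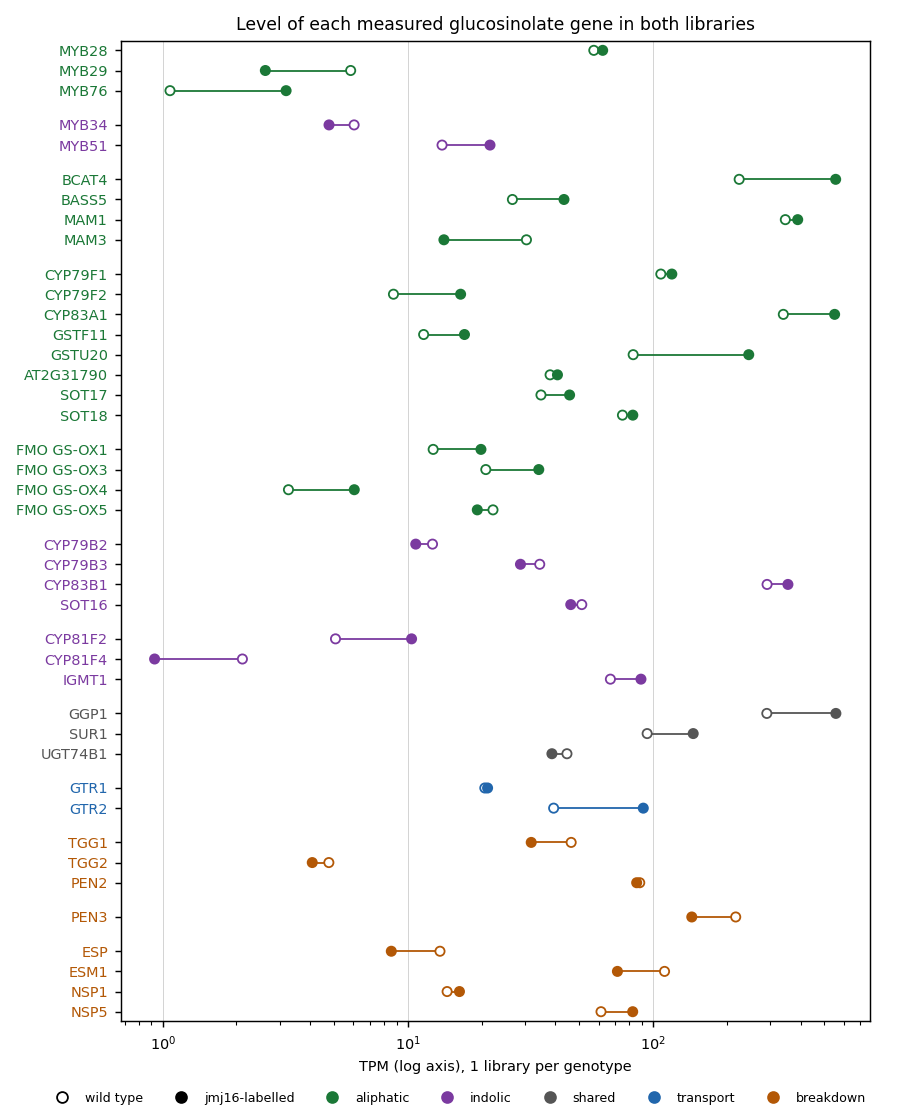
TPM on a log axis for the 41 measured members in wild type (open circles) and the jmj16-labelled library (filled circles), 1 library per genotype and no error bars. CYP83A1, MAM1 and BCAT4 of the aliphatic branch, CYP83B1 of the indolic branch and the shared GGP1 reach the highest levels, and MYB76 (wild type) and CYP81F4 (jmj16-labelled) are the lowest.

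In the indolic branch no member was higher and 1 of 9 measured members was lower. MYB51 (AT1G18570), a main activator of indolic genes in leaves, had 264 reads in wild type against 547 in the jmj16-labelled library, with a log2 ratio of 0.58 (0.36 to 0.80). MYB34 (AT5G60890), an activator of the same genes, had 115 and 120 reads and -0.41 (-0.79 to -0.03). MYB122 (AT1G74080) had 0 reads in both, which with a floor of 3 counts allows up to 0.282 CPM in wild type against 0.217 in the jmj16-labelled library.

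The indolic core had log2 ratios from -0.33 to 0.21. CYP79B2 (AT4G39950) and CYP79B3 (AT2G22330), which turn tryptophan into its aldoxime, had 273 and 308 reads and 755 and 832 reads, with log2 ratios of -0.30 (-0.54 to -0.06) and -0.33 (-0.48 to -0.19). CYP83B1 (AT4G31500), the next enzyme, had 6006 and 9648 reads and 0.21 (0.17 to 0.26). It held 60.3% of the summed indolic TPM in wild type against 62.5% in the jmj16-labelled library. The sulfotransferase SOT16 (AT1G74100) had 703 and 837 reads and -0.22 (-0.37 to -0.07). SOT16 lies next to SOT18 in the reference, and the TPM of SOT18 over that of SOT16 was 1.47 in wild type against 1.79 in the jmj16-labelled library.

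Enzymes that modify the indole ring differed in both directions. CYP81F4 (AT4G37410), which hydroxylates the ring nitrogen position on the way to 1-methoxy compounds, had 39 reads (27.7 to 53.3) in wild type and 22 (13.8 to 33.3) in the jmj16-labelled library, and was 2.43-fold lower (1.42 to 4.35), at 2.11 and 0.927 TPM. CYP81F2 (AT5G57220), which hydroxylates another ring position and is known from defence, had 96 and 259 reads and a log2 ratio of 0.96 (0.62 to 1.31), just under the size limit. With scaling by total counts CYP81F2 passed it. IGMT1 (AT1G21100), a methyltransferase that acts after CYP81F2, had 1083 and 1905 reads and 0.34 (0.23 to 0.45). It has close paralogs, and IGMT1 to IGMT4 summed to 8045 and 11688 reads, a log2 ratio of 0.07 (0.03 to 0.11). IGMT4 alone had 6914 and 9698 of these reads, so the sum cannot check the value of IGMT1.

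Weighed by abundance, the aliphatic ratio again exceeded the indolic one. The indolic sum was higher in the jmj16-labelled library, with a log2 ratio of 0.23, whereas the indolic median was -0.22. The 21 aliphatic loci summed to 1450 TPM in wild type against 2268 TPM in the jmj16-labelled library, 1.56 times as much, and the 10 indolic loci to 484 and 568 TPM, 1.17 times as much. Aliphatic over indolic TPM was 3.0 in wild type against 4.0 in the jmj16-labelled library. Within the aliphatic branch, chain elongation went from 628 to 1002 TPM and the core from 699 to 1118, while the regulators stood at 64.3 and 68.1. The indolic core stood at 390 and 441 TPM. TPM is relative to each library's own total, so these sums are shares of the measured RNA. They are not corrected for the length trend.

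**Figure D3:**
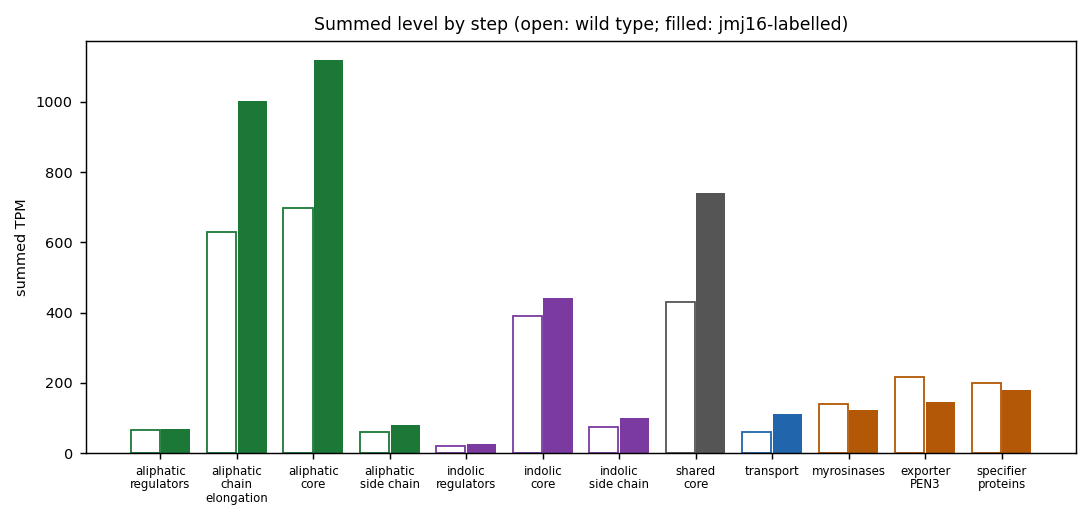
Summed TPM of the members by branch and step in wild type (open bars) and the jmj16-labelled library (filled bars), 1 library per genotype and no error bars. The aliphatic core went from 699 to 1118 TPM and the shared core from 430 to 741, whereas the exporter PEN3 went from 217 to 144. The sums are not corrected for the length trend, and the length-corrected log2 ratio of PEN3 was 0.43.

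Steps that both branches use were not called, yet 2 of the 3 had sizeable positive values. GGP1 (AT4G30530), a peptidase that trims the glutathione conjugate, had 3506 reads in wild type against 8856 in the jmj16-labelled library, or 291 and 557 TPM, with a log2 ratio of 0.87 (0.81 to 0.92) and 0.63 after length correction. SUR1 (AT2G20610), the C-S lyase, had 1784 and 3617 reads and 0.55 (0.47 to 0.63). In SUR1 the model AT2G20610.2 took 1261 and 2999 of these reads and AT2G20610.1 took 523 and 618. UGT74B1 (AT1G24100), a glucosyltransferase, had 791 and 907 reads and -0.27 (-0.41 to -0.13).

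Of the glucosinolate importers, 1 of 2 was called. GTR2 (AT5G62680) and GTR1 (AT3G47960) load glucosinolates into cells and into the phloem. GTR2 had 1046 reads in wild type against 3204 in the jmj16-labelled library (39.3 and 91.2 TPM) and was 2.21-fold higher (2.06 to 2.37), with a log2 ratio of 1.14 that was 1.41 after length correction. GTR1 had 513 and 696 reads and a log2 ratio of -0.03 (-0.20 to 0.14), or 0.17 after length correction. The TPM of GTR2 was 1.91 times that of GTR1 in wild type against 4.32 times in the jmj16-labelled library. Reads of these paralogs can be split wrongly. Summed, they had 1559 and 3900 reads, a log2 ratio of 0.85 (0.77 to 0.94), which is under the 2-fold limit. Of 6 measured vascular markers 3 (XCP1, XCP2 and CESA8, genes of xylem) were higher and 0 lower, beside 7.22% and 10.6% of all measured genes. These 3 had few reads: XCP1 5 and 26, XCP2 21 and 91, and CESA8 2 and 18. The phloem gene SUC2 was the 1 marker below 0, with a log2 ratio of -0.47 (-0.54 to -0.40). After length correction 4 vascular markers were higher and 0 lower, beside 6.22% and 6.64% of all measured genes. The added one was CESA4 at 1.54, with 15 and 42 reads, and SUC2 was at -0.38. Summed, the vascular markers stood at 161 TPM in wild type against 133 in the jmj16-labelled library. Of this SUC2 was 148 and 112, and no vascular marker was at 0. Their part in the values of GTR2 was not tested.

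No breakdown gene was called, and 6 of the 8 had log2 ratios below 0. TGG1 (AT5G26000), the major leaf myrosinase, had 948 reads in wild type against 860 in the jmj16-labelled library, with a log2 ratio of -0.61 (-0.75 to -0.48). TGG2 (AT5G25980), the second leaf myrosinase, had 98 and 113 reads and -0.27 (-0.67 to 0.14). From the most abundant TGG2 model alone the log2 ratio was 0.27. Since TGG1 is abundant in guard cells, their markers are given beside it. Of 6 measured, 0 were higher and 3 (FAMA, KAT1 and KAT2) lower, beside 7.22% and 10.6% of all measured genes. KAT2 had only 32 and 15 reads. Log2 ratios were below 0 for 5 markers, and SLAC1 was at 0.39 (-0.08 to 0.89). The summed level of the 6 markers was 29.4 TPM in wild type against 21.6 in the jmj16-labelled library, and none was at 0. Their part in the value of TGG1 was not tested. After length correction 5 of them were still below 0, and KAT2 was the one past the size limit, with FAMA at -0.99 and KAT1 at -0.49 on the log2 scale. After that correction 6.64% of all measured genes were called lower.

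None of the 4 proteins that steer hydrolysis was called. ESM1 (AT3G14210), which favours isothiocyanates, had 1955 reads in wild type against 1634 in the jmj16-labelled library, with a log2 ratio of -0.73 (-0.83 to -0.63). ESP (AT1G54040), which favours nitriles and epithionitriles, had 190 and 162 reads and -0.70 (-1.01 to -0.39). The nitrile specifier proteins had values above 0, for NSP1 with an interval that includes 0: NSP5 (AT5G48180) had 1132 and 2013 reads and 0.36 (0.25 to 0.47), and NSP1 (AT3G16400) had 277 and 409 and 0.09 (-0.13 to 0.32). In wild type ESM1 had the highest TPM of these 4 genes, at 111, and in the jmj16-labelled library NSP5 did, at 82.6.

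The pathway that acts in living cells had values below 0 before length correction. PEN2 (AT2G44490), an atypical myrosinase that cuts indolic glucosinolates in defence, had 2172 and 2787 reads and a log2 ratio of -0.11 (-0.19 to -0.03). PEN3 (AT1G59870), an ABC exporter at the plasma membrane, had the most reads of any member in wild type, 12685, against 11089 in the jmj16-labelled library, with a log2 ratio of -0.67 (-0.70 to -0.63). PEN3 has a transcript of 4930 nt, and its length-corrected value was 0.43. The corrected value of PEN2 was 0.07, and the median of the 8 breakdown members was -0.09 after correction, so the size of this group's median depends on the length trend. The corrected values of TGG1 (-0.60), ESM1 (-0.80) and ESP (-0.87) were still below 0.

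**Figure D4:**
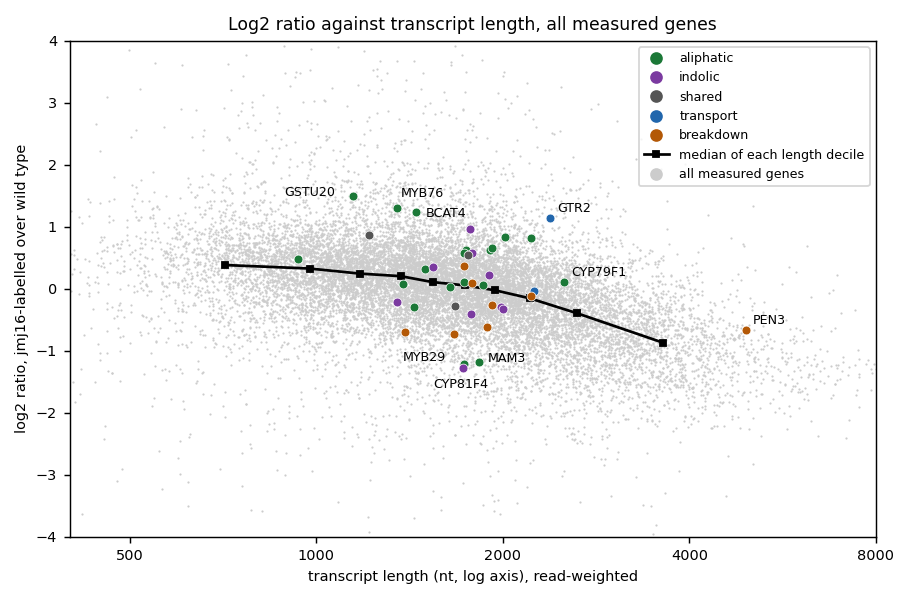
Log2 ratio (jmj16-labelled over wild type) against transcript length on a log axis, for all measured genes (grey, 249 of them outside the axes), the median of each length decile (black) and the members (coloured by branch). The decile medians fall from 0.38 to -0.87, most members lie in the middle deciles, and PEN3, at 4930 nt, lies above the medians of long genes.

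Other genes of the pathway, from 7 lists with 52 genes, were read by the same rule. Of 43 measured genes 5 (11.6%) were higher and 3 (6.98%) lower, beside 7.22% and 10.6% of all measured genes. Their median log2 ratio was 0.56, beside 0.02, both without length correction. With 4 to 8 measured genes a list, a count of 1 called gene is not read against these shares. Among 8 measured other aliphatic genes there were 3 higher and 0 lower, and the median was 0.68, or 0.64 after length correction. IPMI SSU2 (AT2G43100) and IPMI SSU3 (AT3G58990) are small subunits of the isomerase that follows MAM enzymes in elongation. They were 2.54-fold (2.42 to 2.67) and 2.35-fold (2.18 to 2.54) higher, with 1928 and 6794 reads and 858 and 2795 reads. After length correction they were 2.15-fold and 2.01-fold higher. The locus AT1G12160, unnamed in the reference, had 5 and 22 reads, which was 2.95-fold higher (1.17 to 10.7). The only measured gene of this list below 0 was AT2G25450, also unnamed there and singled out after its value was seen, at 7930 and 9552 reads and -0.20 (-0.25 to -0.16). BZO1, SCPL17 and AT1G12130 had 0 reads in both libraries.

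Of 6 other indolic genes 0 were higher and 1 lower, with a median of -0.09, or -0.25 after length correction. The lower gene was CYP81F3 (AT4G37400), a relative of CYP81F4, with 129 and 80 reads and 2.23-fold lower (1.68 to 2.99). The methyltransferases IGMT4 and IGMT5 stood at 0.02 (-0.03 to 0.06) and -0.19 (-0.49 to 0.12) on the log2 scale. Of 4 other genes of shared steps and transport 0 were called, with a median of 0.62, and the glutathione transferases GSTF9 and GSTF10 had 0.62 (0.60 to 0.64) and 0.87 (0.84 to 0.91). After length correction, GSTF9 was at 0.29, GSTF10 at 0.62 and the median of the list at 0.35.

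Of 6 measured other breakdown genes 0 were higher and 2 lower, beside 7.22% and 10.6% of all measured genes. The median of the list was 0.42, or 0.31 after length correction. The 4 that were not called had log2 ratios above 0. Among them NIT1 had the most reads of the list, 7402 and 19074, and a log2 ratio of 0.89 (0.86 to 0.93), or 0.66 after length correction. Both lower genes encode beta-glucosidases of ER bodies: PYK10 had 410 and 218 reads, which was 2.61-fold lower (2.21 to 3.09), and BGLU18 had 655 and 405, which was 2.24-fold lower (1.98 to 2.54). The root myrosinases TGG4 and TGG5 had at most 2 reads in either library. Of 7 other regulators 0 were called, with a median of 0.21, or 0.0047 after length correction. There were 4 above 0 and 3 below. SLIM1 was the 1 below 0 with an interval that excludes 0, at -0.91 (-1.29 to -0.54). MYC3 and MYC2, which work with the MYB factors, had log2 ratios of 0.26 (0.17 to 0.36) and 0.68 (0.55 to 0.80), and MYC2 passed the size rule after length correction, at 1.37.

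Supply of precursors was read in the last 2 lists. Of 7 genes of sulfate activation and reduction 1 was higher and 0 lower, with a median of 0.62. APK2 (AT4G39940), which makes the sulfate donor of the sulfotransferases, had 1490 and 4187 reads, which was 2.03-fold higher (1.91 to 2.15), and it did not pass after length correction (log2 ratio 0.85). APK1, of the same function, and ATPS1, an ATP sulfurylase, had 0.76 (0.68 to 0.84) and 0.62 (0.58 to 0.66). Of 5 measured genes of tryptophan and camalexin synthesis 1 was higher, with a median of 0.81: CYP71A12 (AT2G30750), of the defence branch from indolic aldoxime, had 5 and 29 reads, which was 3.87-fold higher (1.6 to 13.8). The tryptophan synthase genes TSB1 and TSA1 had log2 ratios of 0.72 (0.66 to 0.79) and 0.94 (0.82 to 1.07).

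**Figure D5:**
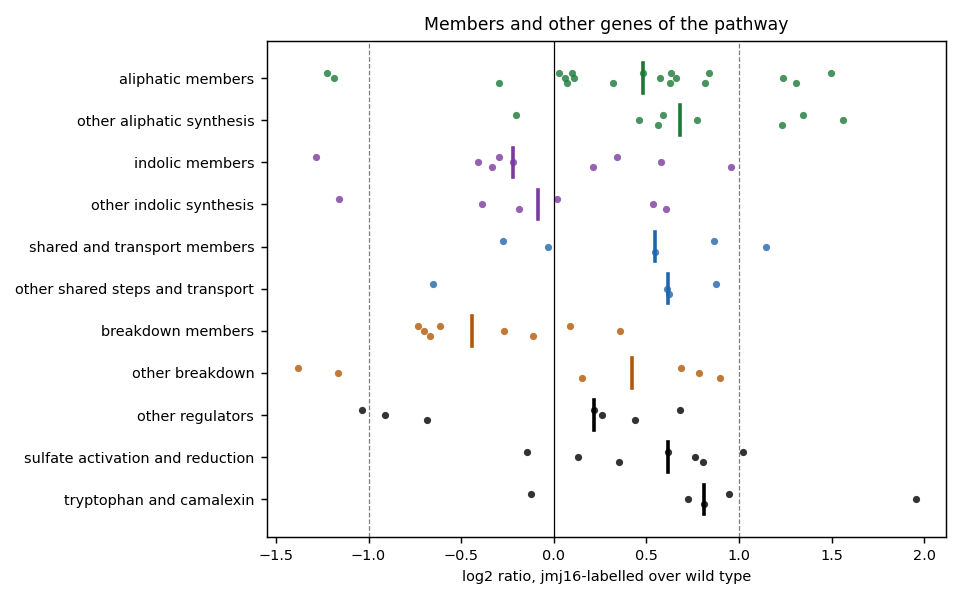
Log2 ratio (jmj16-labelled over wild type) for each measured member and each measured gene of the other pathway lists (points), with the median of each row as a bar and dashed lines at 2-fold. The aliphatic rows have medians of 0.48 and 0.68, and the indolic rows -0.22 and -0.09.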

How the data were processed

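Per the file headers, the authors deposited for each library a table in the layout Salmon writes, with an estimated count of reads and TPM for each of 48359 transcript models. The estimated counts are not normalized, and the deposited TPM is scaled by transcript length and library total. Per the submitters' processing notes, the tools were deepTools, SAMtools, Bowtie2, TopHat2 and Salmon and the build TAIR10, with no version or role stated. Strandedness and annotation release were not stated, so reads of overlapping genes and of close paralogs are uncertain.

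Here, counts and TPM were summed per locus and counts rounded. Symbols came from a RefSeq table of assembly TAIR10.1, which matched 27445 of 27655 loci and was used for names and neighbours only. Libraries were scaled with TMM (edgeR 4.0.16, R 4.3.3, factors 0.969 and 1.03), and 0.5 was added to each count before the log2 ratio. Ratio intervals are exact (Clopper-Pearson) and intervals of single counts exact Poisson, both at 95%. Reads are not independent molecules, so both cover counting error only. Median intervals are exact binomial, or the range under 6 members. Transcript length is the read-weighted mean over models, and the correction subtracts a lowess trend (span 0.3, statsmodels 0.14.6, Python 3.11.15). The call function was run on simulated counts with counting error only and with planted differences larger than that of any called member. This run therefore does not cover variation between libraries or differences of the size called here.

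The rule for the members uses no measured value, but the members, lists and call rules were chosen with earlier results of these data known. Every member is named. Of each other list, up to 4 called genes are named, largest difference first, and the 2 with most reads where fewer than 2 were called. A few further genes are named for their reads or their value. Alternatives were other scalings (DESeq2 1.42.0 median of ratios, total count, upper quartile), log2(TPM + 1), 5 added to each count, other minimums of reads, the most abundant transcript alone, 1.5-fold, an interval wholly beyond 2-fold, and length correction.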

Additional observations from a re-analysis of the deposited data

How the results depend on the processing

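No paired analysis was possible because there is 1 library per genotype. Of the 117 alternative values of the main results, 101 stayed within their limits, 16 moved and 0 reversed. This count does not measure robustness. Other scalings by library size shift both branch medians alike, so the difference of 0.70 between them could not move. The breakdown median also counted as within its limits, though it went from -0.44 to -0.09 with length correction. At 1.5-fold, 11 members were higher and 7 lower, 8 of 19 in the aliphatic branch were higher, and 1 of 9 in the indolic branch, beside 16.4% higher and 19.6% lower of all measured genes. With an interval wholly beyond 2-fold, 0 members were lower, 0 of them aliphatic and 0 indolic. With log2(TPM + 1), which shrinks low genes, 1 member was lower, 1 of the aliphatic and 0 of the indolic branch. With total-count scaling 1 indolic member was higher, and with a minimum of 100 reads 0 indolic members were lower, since CYP81F4 was no longer measured. The log2 ratio of the summed aliphatic TPM was 0.64, and 0.52 from scaled counts or 0.68 from the most abundant transcripts. That of the indolic branch was 0.23, and 0.16 from scaled counts or 0.15 without CYP83B1. The aliphatic median ranged from 0.40 to 0.57 and the indolic from -0.24 to -0.0039. After length correction 5 members changed sign: AT2G31790, SOT18, GTR1, PEN2 and PEN3. For members with few reads, such as MYB76 and CYP81F4, depth limits the size of the ratio.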
